A study of Rattus norvegicus with 10 samples.

Results

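The genes Lcat, Lipc, Scarb1, Abca1, Pltp and Angptl8, which act on lipoproteins after secretion and on the handling of HDL, were described in the liver of diabetic rats. They were chosen by name, and their values were the sums of all isoform entries that carried the gene's name and matched, lay within, shared a junction with or overlapped a reference gene. All 6 were found among 20226 genes summed in that way, through 10 isoform entries. The livers came from wild-type Wistar rats fed for 4 weeks on a diet with 60% of its calories as fat and then given 35 mg/kg of the beta cell toxin streptozotocin after 16 h of fasting. They entered the study with a fasting glucose above 16.7 mmol/L 3 days later. Sleeve gastrectomy (SG), an operation that turns the stomach into a narrow tube, was compared with a sham operation (SHAM), with 5 libraries in each group. All 10 libraries shared the diet and the streptozotocin, so neither a lean nor a non-diabetic liver entered the comparison. According to the labels the SG livers were taken at 3 months. No time is stated for SHAM, and time and operation cannot be told apart. The labels do not say that each library came from its own rat, and p-values therefore measure the spread between libraries.

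High-density lipoprotein (HDL) forms when the exporter encoded by Abca1 loads phospholipid and cholesterol from the cell onto lipid-poor apolipoprotein A-I. Lecithin cholesterol acyltransferase (Lcat) then esterifies that cholesterol, phospholipid transfer protein (Pltp) moves phospholipid between particles, and hepatic lipase (Lipc) hydrolyses the lipids of HDL and of remnant particles. The scavenger receptor encoded by Scarb1 takes up cholesteryl ester from HDL into the hepatocyte without taking up the whole particle. Angptl8 encodes a secreted protein of liver and fat that is induced by feeding and insulin and takes part in inhibiting lipoprotein lipase. Rats lack cholesteryl ester transfer protein, so this uptake is their main direct route of HDL ester to the liver.

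The promoters of 5 of the 6 members were found in the RefSeq table of the GRCr8 assembly, which is not the build of the expression table, and that of Scarb1 was not in it. The 250 bases before the start of 3 members are shown because Abca1 is the classic target of the sterol-sensing nuclear receptor LXR, Lipc had the largest estimated difference between the groups and Angptl8 the widest spread. Capitals mark motifs that were searched on both strands and chosen with these sequences in view. The LXR element, modelled on that of human ABCA1, was TGACC and AGTAACC with any 3 bases between them. The site of the hepatocyte factor HNF1 was GTTAAT and ATT with any 1 base between them, and the E-box was CACGTG. In Abca1 the E-box comes first and the LXR element second; in Lipc and Angptl8 the capitals are the HNF1 motif.
Abca1 (chr5:72596474-72596723, minus strand): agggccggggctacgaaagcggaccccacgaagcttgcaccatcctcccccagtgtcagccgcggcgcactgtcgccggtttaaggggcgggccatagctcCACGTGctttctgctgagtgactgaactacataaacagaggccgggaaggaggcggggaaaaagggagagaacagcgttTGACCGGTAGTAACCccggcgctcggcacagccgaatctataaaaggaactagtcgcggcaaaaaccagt
Lipc (chr8:80516286-80516535, minus strand): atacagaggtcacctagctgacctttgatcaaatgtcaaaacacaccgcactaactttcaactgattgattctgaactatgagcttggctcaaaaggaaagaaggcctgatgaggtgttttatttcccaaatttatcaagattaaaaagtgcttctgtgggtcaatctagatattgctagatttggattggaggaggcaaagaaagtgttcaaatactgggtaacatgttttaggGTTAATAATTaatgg
Angptl8 (chr8:28652305-28652554, plus strand): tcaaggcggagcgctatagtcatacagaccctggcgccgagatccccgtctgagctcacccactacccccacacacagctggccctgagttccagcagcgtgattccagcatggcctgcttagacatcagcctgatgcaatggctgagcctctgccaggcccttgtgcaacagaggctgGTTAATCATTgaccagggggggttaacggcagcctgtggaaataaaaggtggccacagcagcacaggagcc
The LXR motif of Abca1 lay 70 to 56 bases before the start and was present in 4 of 33469 promoters of the same length (0.012%). The HNF1 motif was present in 0.323% of promoters and the E-box in 5.59%. A further motif, TTANGTAA, the core of the D-box bound by the clock output factor DBP, was present in 2.04% of promoters and in 0 of the 5 members searched. The motifs do not overlap one another, and a match describes letters only.

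The libraries held 77617460 to 92110190 estimated counts (SG) and 65824088 to 85520959 (SHAM). The members held between 347 (Angptl8, lowest library) and 43638 (Lcat, highest library) estimated counts per library. All 12 hepatocyte markers on the list used here were detected, and the albumin gene Alb stood at 15520 to 27810 FPKM, a read level scaled to transcript length and library size. Of 11139 genes with a mean of at least 1 FPKM, 0 passed in edgeR at an adjusted p of 0.05 (0.0%) and 505 had an unadjusted p under 0.05 (4.53%). DESeq2 called 18 (0.162%). Groups whose FPKM did not overlap were found for 149 of these genes (1.34%).

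None of the 6 members passed the test in edgeR (0.0% of all tested genes did), and the groups overlapped in every one (1.34% of all tested genes did not overlap). Means below are given ± SD over n = 5 libraries per group, and log2 fold changes are SG against SHAM ± SE. Hepatic lipase was the 1 member with a higher fitted value in SG, and the other 5 had log2 fold changes below 0, where 52.6% of all tested genes did. In limma on log2(FPKM + 0.5), Lcat, Pltp and Angptl8 were above 0 as well, and only Scarb1 and Abca1 below it. The median over the members was -0.12 and over all tested genes -0.01, where limma gave 0.02 and 0.08. The members' median was 0.094 without SHAM 5, and it was -0.22 without SHAM 2 and without SHAM 1, so its sign rests on single libraries. It was -0.03 without SHAM 4, -0.04 without SG 3, -0.20 without SG 4 and -0.19 without SHAM 3. The 1 member with an unadjusted p under 0.05 was Lipc, where 4.53% of all tested genes had one and 2.68% had one with a higher level in SG. The 95% interval stayed inside 2-fold in both directions for 5 members, all but Angptl8 (84.9% of all tested genes). It stayed inside 1.5-fold for 3, Lcat, Scarb1 and Abca1 (60.6% of all tested genes). In these whole-liver samples, fewer cells of a type and less RNA per cell cannot be told apart.

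By level, Lcat stood first with a mean of 242 FPKM over the 10 libraries, rank 193 of the tested genes. Lipc followed at 54.0 FPKM, Scarb1 at 41.6, Abca1 at 32.2, Pltp at 15.3 and Angptl8 at 14.04 FPKM. Lcat exceeded Lipc in 10 of 10 libraries and their ranges did not overlap. The lower neighbours overlapped: Lipc exceeded Scarb1 in 7 libraries, Scarb1 exceeded Abca1 in 9 and Pltp exceeded Angptl8 in 6. Abca1 exceeded Pltp in all 10 libraries, by 1.19-fold to 4.33-fold.

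**Figure D1:**
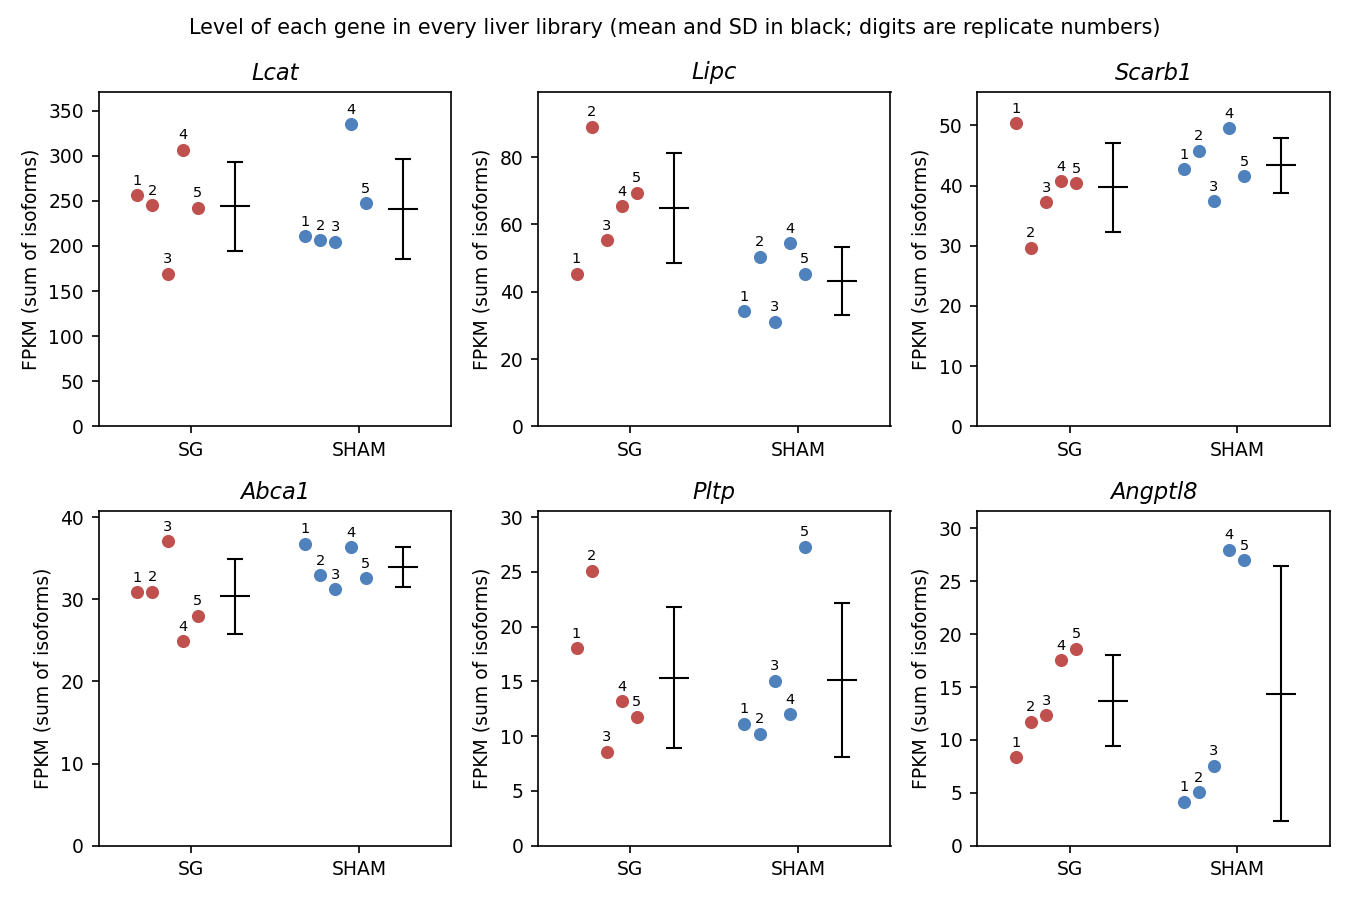
FPKM of the 6 genes, summed over isoforms, in each of the 5 SG (red) and 5 SHAM (blue) libraries, with the group mean and SD in black and replicate numbers above the points. Lipc lies above the SHAM maximum of 54.3 FPKM in 4 SG libraries, while Angptl8 in SHAM splits into libraries at 4.16 to 7.57 and at 27.0 to 28 FPKM.

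Abca1, which starts HDL formation by exporting cholesterol, had a lower mean in SG within overlapping groups. Its FPKM were 30.9, 30.9, 37.1, 24.9 and 28 in SG 1 to SG 5 and 36.8, 33.0, 31.3, 36.3 and 32.6 in SHAM 1 to SHAM 5. In 4 of 5 SG libraries it was below the lowest SHAM library, but SG 3 was the highest of all 10. The means were 30.4 ± 4.52 FPKM for SG and 33.99 ± 2.43 for SHAM (SD, n = 5), with coefficients of variation of 14.9% and 7.16%, the smallest among the members. The log2 fold change was -0.26 ± 0.13 (SE), with a 95% interval from -0.54 to 0.03 and an adjusted p of 0.991 in edgeR. A fall to less than 0.69 of the SHAM level is therefore outside the interval. The gene was represented by 1 isoform, of 51 exons and 10339 nt, at chr5:69857771-69983015 on the minus strand of Rnor_6.0.

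Other genes of the LXR pathway, which Abca1 belongs to, had values on both sides of 0. Of 13 tested genes on that list, which leaves out Abca1 itself, 6 had positive and 7 negative log2 fold changes. Their median was -0.05 (0.09 in limma), and 0 passed in either direction. Nr1h3, encoding the receptor LXR alpha, had 51.4 ± 4.29 FPKM in SG and 51.5 ± 3.64 in SHAM (log2 fold change -0.10 ± 0.10). The sterol exporters pointed different ways. Abcg1, which passes cholesterol to mature HDL, had 3.15 ± 0.76 FPKM in SG and 5.46 ± 3.56 in SHAM (log2 fold change -0.83 ± 0.41 SE). It reached 11.6 FPKM in SHAM 5, the SHAM library with the highest macrophage markers. SG 2, the library with the highest sum of these markers in either group, had 4.21 FPKM of Abcg1, and SHAM 2, with the lowest sum, had 4.38. The part of these cells in the Abcg1 values was not tested. Abcg8, which sends sterol into bile as a pair with Abcg5, had a log2 fold change of 1.99 ± 0.96. SG 1 stood at 12.7 FPKM, its fellow SG libraries at 0.24 to 2.62 and SHAM at 0.21 to 1.35. Abcg5 stood at 0.91 ± 0.55, again with its highest value in SG 1 (24.2 FPKM). Srebf1, an LXR target that drives fatty acid synthesis, stood at -0.71 ± 0.38. The adjusted p was 0.991 for each of Abcg1, Abcg5, Abcg8 and Srebf1 (edgeR). Apoa1, the acceptor of the lipid that Abca1 exports, had 446 ± 260 FPKM in SG and 542 ± 433 in SHAM, with a log2 fold change of -0.41 ± 0.54 and single libraries between 154 and 1286 FPKM. Nr1h3 and Apoa1 were picked with their values already known.

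Lcat, the plasma enzyme that turns HDL cholesterol into ester, had nearly equal means. Its FPKM were 256, 245, 169, 307 and 242 in SG 1 to SG 5 and 211, 206, 205, 335 and 247 in SHAM 1 to SHAM 5. SG 3 was the lowest and SHAM 4 the highest library, and the other values of both groups lay between 205 and 307. The means were 244 ± 49.3 FPKM for SG and 241 ± 55.5 for SHAM. On the counts the log2 fold change was -0.08 ± 0.20 (SE; 95% interval -0.54 to 0.37; adjusted p = 0.993 in edgeR). The sign was not stable: it turned without SG 3 (0.02) or SHAM 4 (0.09) and in limma on log2(FPKM + 0.5), at 0.02. Lcat rests on 1 isoform of 6 exons at chr19:37913336-37916813 on the minus strand.

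Pltp, which transfers phospholipid between particles, was highest in SG 2 and SHAM 5, and only SHAM 5 stood far from the rest of its group. Its FPKM were 18.1, 25.1, 8.57, 13.2 and 11.8 in SG 1 to SG 5 and 11.1, 10.2, 15.1, 12.02 and 27.3 in SHAM 1 to SHAM 5. SG 2 and SHAM 5 were high, and the other 8 libraries lay between 8.57 and 18.1 FPKM. The means were 15.4 ± 6.44 FPKM for SG and 15.2 ± 7.04 for SHAM, with a log2 fold change of -0.09 ± 0.35 (SE; interval -0.87 to 0.69; adjusted p = 0.993 in edgeR). The value was 0.25 without SHAM 5, 0.055 without SG 3 and 0.01 without SG 5, was 0.02 in limma on log2(FPKM + 0.5), and was -0.34 without SG 2. With SG 2 and SHAM 5 both left out, which was tried once their values were known, it was -0.01 ± 0.24.

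The same 2 libraries led in macrophage markers. Of the 12 macrophage and Kupffer cell markers tested, 3 had positive and 9 negative log2 fold changes, with a median of -0.34 and 0 passing. That median rests on single libraries, since it was -0.009 without SHAM 5, -0.18 without SG 5, -0.54 without SG 2 and -0.17 in limma. The summed level of the 12 macrophage and Kupffer cell markers in the table was 694 FPKM in SG 2 and 686 in SHAM 5. In the other libraries it was 313 to 359 FPKM in SG and 264 to 421 in SHAM. None of these markers stood at 0 in any library, but they did not all follow the sum. Cd163, the most abundant, was at 150 FPKM in SG 2, 146 in SHAM 1 and 135 in SHAM 5, and SHAM 1 had a low Pltp of 11.1 FPKM. The part of these cells in the Pltp values was not tested. Pltp at chr3:161304469-161322289 (minus strand, 16 exons) overlaps the lysosomal protease gene Ctsa on the other strand (92.0 to 143 FPKM). The sources used here do not say whether the counting used strand, so it is not known whether reads from the shared stretch were kept apart. A strand is listed even for an unspliced assembled transcript inside an Abca1 intron, given among the other observations.

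Lipc, encoding hepatic lipase, had the largest estimated difference among the members. Its FPKM were 45.4, 89.1, 55.2, 65.3 and 69.4 in SG 1 to SG 5 and 34.2, 50.4, 31.1, 54.3 and 45.3 in SHAM 1 to SHAM 5. In 4 of 5 SG libraries Lipc was above the highest SHAM library, and SG 1 lay within the SHAM range, so the groups overlapped. The means were 64.9 ± 16.4 FPKM for SG and 43.1 ± 10.1 for SHAM. The log2 fold change was 0.49 ± 0.21 (SE), or 1.41-fold with a 95% interval from 1.02 to 1.95. The edgeR p was 0.0404 before and 0.991 after adjustment, which placed Lipc at rank 399 of the 11139 genes. The p before adjustment was 0.0256 in DESeq2, where 5.62% of all genes were under 0.05, and 0.106 in edgeR without SG 2, where the log2 fold change was 0.35. In edgeR it was also above 0.05 without SG 4 (0.068), SG 5 (0.062), SHAM 1 (0.090) or SHAM 3 (0.092). It was under 0.05 in 14 of the 20 alternatives. The direction was positive in all 20 alternatives, from 0.35 to 0.61. SG 2, the library with the highest Lipc, also had the highest summed macrophage and stellate cell markers, whose part in the Lipc value was not tested.

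Lipc was carried by 2 reference isoforms on the minus strand of chr8. The leading one (ENSRNOT00000085349, 10 exons, chr8:77272570-77398201) had 42.9 ± 13.7 FPKM in SG and 26.3 ± 7.79 in SHAM. The other (ENSRNOT00000082763, 9 exons) had 21.9 ± 3.74 and 16.8 ± 2.78 FPKM, so its mean was also the higher one in SG. The leading isoform held 65.2 ± 6.69% of the gene's FPKM in SG and 60.4 ± 5.07% in SHAM, a difference of 4.79 points (two-sided exact permutation test, p = 0.23, adjusted p = 0.679 over 3 genes). The difference was 7.53 points without SG 1, 2.93 without SHAM 3 and 3.20 without SG 4.

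**Figure D2:**
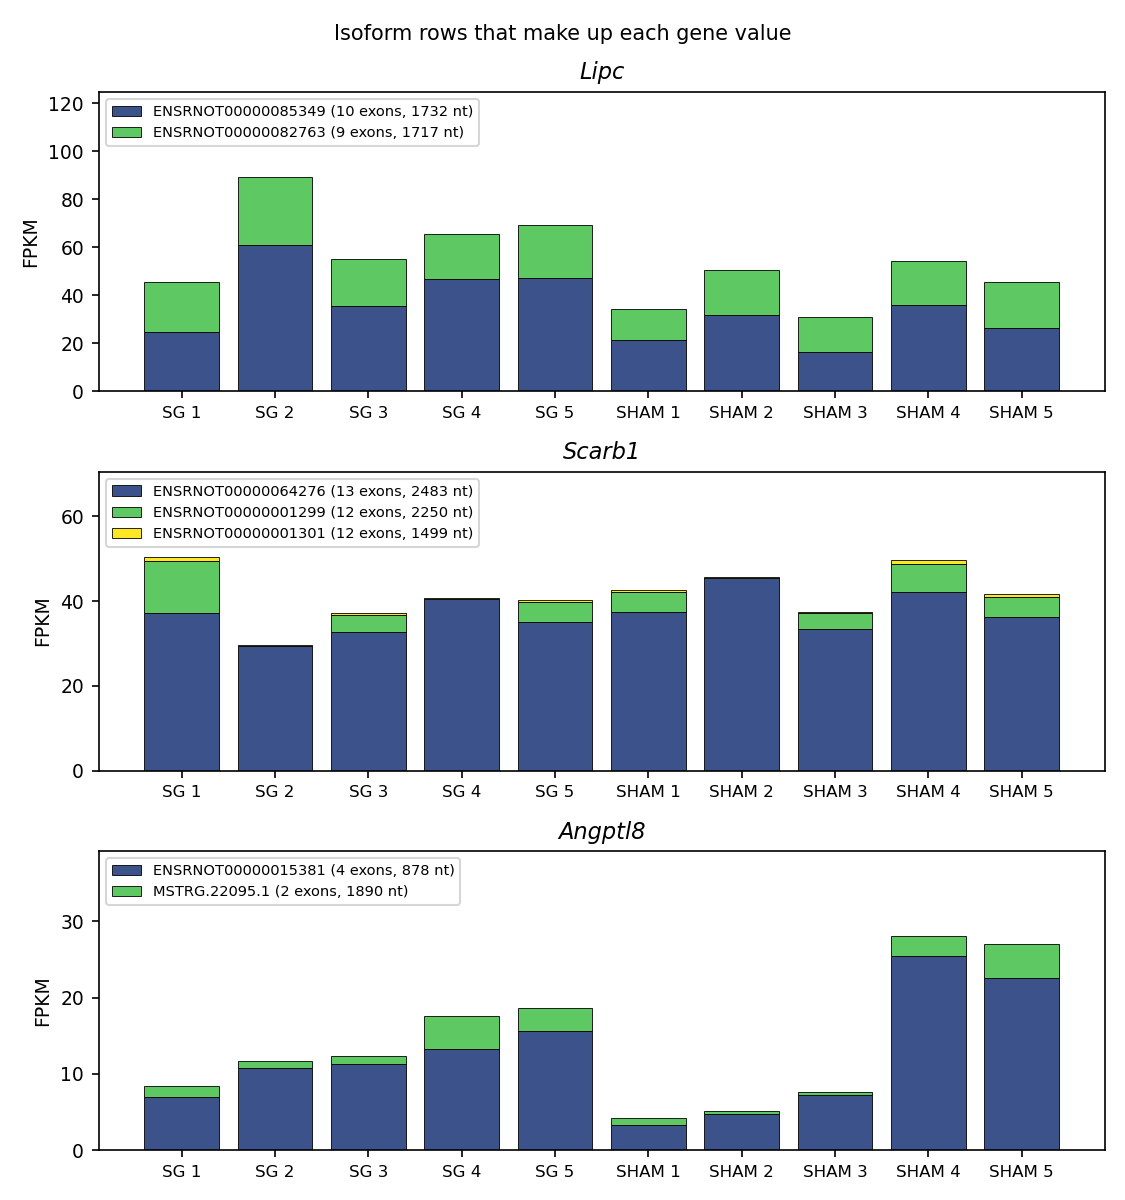
FPKM of each isoform entry (stacked bars) of Lipc, Scarb1 and Angptl8 in the 10 libraries. The second Scarb1 isoform is listed at 0 in SG 2, SG 4 and SHAM 2, and in Lipc both isoforms have their highest value in SG 2.

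Among related lipases and their partners, 10 of 12 tested genes had positive and 2 negative log2 fold changes, and 0 passed. Of all tested genes 52.6% were below 0. The median of the list was 0.09, and it was 0.03 without SG 4 and 0.19 in limma on log2(FPKM + 0.5). Apoa5, Apoc2 and Apoc3 are on this list and on that of the apolipoproteins below. Lpl, encoding lipoprotein lipase, which acts mainly outside the adult liver, stood at 3.88 ± 2.31 FPKM in SG and 1.71 ± 0.90 in SHAM (log2 fold change 1.06 ± 0.47 SE). Pcsk5, a protease that can inactivate lipases, stood at 0.79 ± 0.33. Both had an unadjusted edgeR p under 0.05 (0.045 and 0.0381), as had 4.53% of all tested genes. The adjusted edgeR p was 0.991 for each, and both genes were highest in SG 2, at 7.40 and 6.86 FPKM. In SG 2 the summed stellate cell and fibroblast markers reached 117 FPKM, while SG libraries other than SG 2 held 44.5 to 62.8 and SHAM 34.4 to 68.1. Their part in these values was not tested. Endothelial lipase, Lipg, picked with its values known, was at a mean of 0.02 FPKM in SG and 0.03 in SHAM and did not enter the test.

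Scarb1, the hepatic HDL receptor, was lower on average in SG within overlapping groups. Its FPKM were 50.4, 29.7, 37.3, 40.8 and 40.4 in SG 1 to SG 5 and 42.7, 45.8, 37.4, 49.6 and 41.6 in SHAM 1 to SHAM 5. The highest and the lowest library were both SG, namely SG 1 and SG 2. The means were 39.7 ± 7.45 FPKM for SG and 43.4 ± 4.56 for SHAM. The log2 fold change was -0.23 ± 0.14 (SE), with a 95% interval from -0.53 to 0.08 and an adjusted p of 0.991 in edgeR. It was -0.32 without SG 1 and -0.14 without SG 2, the library with the most macrophage and stellate cell marker RNA, whose part in it was not tested.

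The leading isoform of Scarb1 (ENSRNOT00000064276, 13 exons, chr12:36694960-36761455, plus strand) held 74.0 to 99.1% of its FPKM in SG and 85.1 to 99.4% in SHAM. A second isoform of 12 exons (ENSRNOT00000001299) was listed at 0 in SG 2, SG 4 and SHAM 2 and reached 12.1 FPKM in SG 1, where the total was also highest. The mean share of the leading isoform differed by -0.26 points between SG and SHAM (two-sided exact permutation test, p = 0.921, adjusted p = 0.921), and by 3.59 points in the other direction without SG 1. Isoform values are estimates that share out common reads. Pdzk1, the adaptor that holds this receptor at the hepatocyte surface and a gene singled out after its values were seen, had a log2 fold change of -0.01 ± 0.11.

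Other lipoprotein receptors and their regulators gave 5 positive and 4 negative values among 9 tested genes, with a median of 0.00 and 0 passing. Lrp1, a receptor for remnant particles, had the smallest p of that list and stood at 151 ± 38.9 FPKM in SG and 112 ± 13.6 in SHAM (0.33 ± 0.19). The heparan sulfate proteoglycan gene Sdc1 stood at 0.11 ± 0.21.

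Angptl8, the feeding-induced lipase inhibitor gene, had the widest range over the 10 libraries among the members, with a highest value 6.73 times the lowest. Its FPKM were 8.37, 11.7, 12.4, 17.5 and 18.6 in SG 1 to SG 5 and 4.16, 5.07, 7.57, 28 and 27.0 in SHAM 1 to SHAM 5. The 5 SG values all lay in the gap of the SHAM group, above SHAM 1 to SHAM 3 and below SHAM 4 and SHAM 5. The means were 13.7 ± 4.28 FPKM for SG and 14.4 ± 12.1 for SHAM, and the coefficient of variation was 31.2% in SG, below that of Pltp (42.0%), and 84.0% in SHAM. Over all tested genes the median coefficient of variation was 17.5% in SG and 19.6% in SHAM. The difference in spread was not tested. The log2 fold change was -0.15 ± 0.57 (SE), its 95% interval ran from -1.41 to 1.11, and the adjusted p was 0.993 in edgeR. It was 0.23 without SHAM 4, 0.26 without SHAM 5 and 0.31 in limma on log2(FPKM + 0.5), so no direction can be given.

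Angptl8 was made up of the reference isoform of 4 exons and 878 nt (chr8:22856539-22858565, plus strand) and an assembled isoform over the same span with 2 exons and 1890 nt. The reference isoform held 85.2 ± 6.74% of the FPKM in SG and 88.5 ± 6.97% in SHAM (two-sided exact permutation test, p = 0.452, adjusted p = 0.679). That difference of -3.27 points was -0.89 without SG 4, -1.36 without SHAM 3 and -5.64 without SHAM 1. The gene overlaps Dock6 on the other strand, which stood at 1.24 to 3.13 FPKM. Angptl4, an inhibitor of lipoprotein lipase induced by fasting, had 17.3 ± 7.69 FPKM in SG and 11.02 ± 5.96 in SHAM (0.48 ± 0.38). Adipoq, a defining marker of fat cells, which also make Angptl8, was picked with its values known and was listed at 0 in all libraries but SG 2 (0.31 FPKM). It does not stand for its list: of the 6 adipocyte markers found, only 2 were at 0 in any library. Cidec, the most abundant, stood at 16.9 to 22.8 FPKM in SG and 14.7 to 26.1 in SHAM. The part of fat cells in the Angptl8 values was not tested.

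Of 11 tested genes of fatty acid synthesis that respond to insulin and feeding, as Angptl8 does, 5 had positive and 6 negative values. The median was 0.00, with 0 passing. That median was 0.15 in limma, 0.21 without SHAM 4, -0.13 without SG 1 and -0.31 with only the isoforms that match a reference gene. Srebf1 was highest in SHAM 4 (104 FPKM), as was Angptl8, but SHAM 5, the second highest library for Angptl8, had 44.3 FPKM of Srebf1. Me1, which supplies NADPH for fatty acid synthesis, was likewise highest in SHAM 4 (15.8 FPKM) and stood at -0.55 ± 0.32. Other genes of the list ran the other way, as seen once their values were known. Thrsp, a lipogenic regulator, had its lowest values in SHAM 4 (37.1 FPKM) and SHAM 5 (18.7 FPKM). The fatty acid synthase gene Fasn stood at 15.2 and 3.20 FPKM in these libraries, while its highest level was 63.8 FPKM in SG 1. The pyruvate kinase gene Pklr stood at 0.26 ± 0.19.

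**Figure D3:**
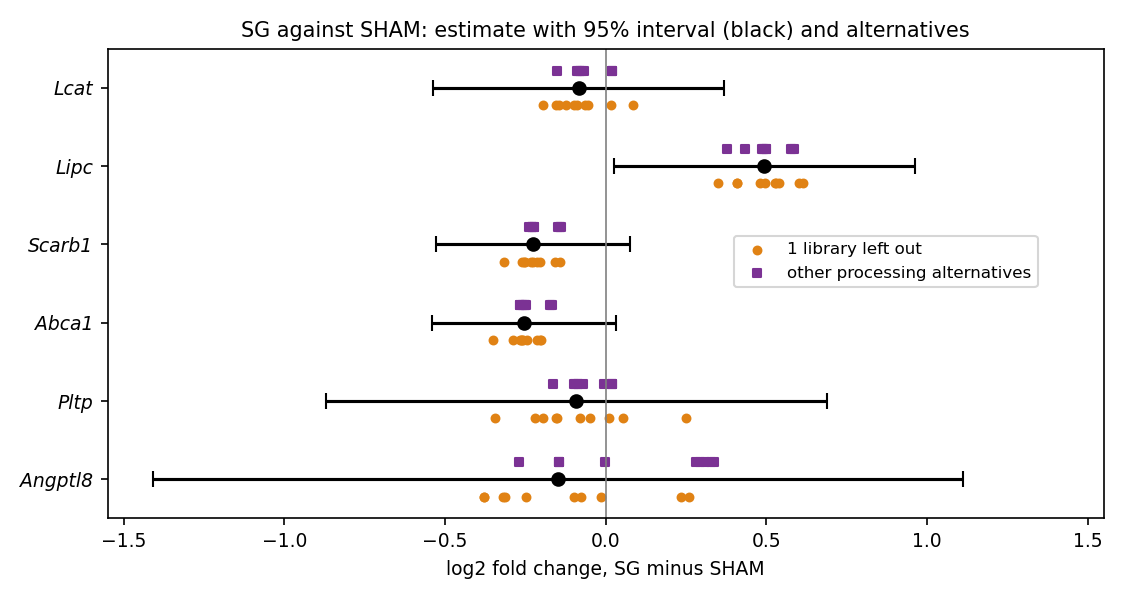
Log2 fold change of SG against SHAM (x axis) for the 6 genes, with the edgeR estimate and 95% interval in black, fits with 1 library left out in orange and the other alternatives in purple. Lipc, Scarb1 and Abca1 keep their sign in all alternatives, while Lcat, Pltp and Angptl8 fall on both sides of 0.

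The apolipoproteins and HDL-bound enzymes on which the members act were likewise without a call. Of 16 tested genes 10 had positive and 6 negative log2 fold changes, with a median of 0.07 and 0 passing. Pon1, the antioxidant esterase carried by HDL, had 425 ± 66.3 FPKM in SG and 329 ± 35.7 in SHAM (0.28 ± 0.13) and was above the highest SHAM library in 4 of 5 SG libraries. Its relative Pon3 stood at 0.22 ± 0.13, and Apoc4 at -0.33 ± 0.15. Among 15 genes of sterol export, esterification and storage 6 were positive and 9 negative, with a median of -0.04 (0.11 in limma) and 0 passing. This list shares genes with that of the LXR pathway, among them Abcg1 and Abcg8, so their medians are not separate results. Srebf1 is on both the LXR list and that of the insulin and feeding responsive genes.

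The livers also differed widely in Dbp, a clock output gene whose level follows the hour of sampling. That hour is not stated in the labels. Dbp stood at 81.1 FPKM in SG 3 and 83.6 in SHAM 2, at 20.5 to 22.7 in SG 1, SHAM 1 and SHAM 3, and at 2.34 to 4.63 in the other 5 libraries. Both groups held libraries of each kind. SG 3, the library with the lowest Lcat, was among those with the highest Dbp, and SHAM 4, with the highest FPKM of Lcat and Angptl8, had the lowest. Angptl8 followed Dbp less closely. It stood at 12.4 FPKM in SG 3 and 5.07 in SHAM 2, and its lowest value, 4.16, was in SHAM 1. On log2 CPM, the scale of depth-scaled counts, Angptl8 was highest in SHAM 5 (5.28, with 5.24 in SHAM 4). Because the libraries fall into separate levels of Dbp, none with 6 libraries, no correlation is given. With Dbp as a covariate the log2 fold change of Lcat was -0.15 with an SE of 0.135, where the SE was 0.20 without it. That of Angptl8 was -0.001 with an SE of 0.455 in place of 0.57. Lipc stood at 0.43 ± 0.19 in that fit, where its SE was 0.21 without the covariate. The SE was 0.33 in place of 0.35 for Pltp, 0.128 in place of 0.129 for Abca1 and 0.142 in place of 0.137 for Scarb1. None of the members passed, and the part of Dbp in their levels was not tested.

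**Figure D4:**
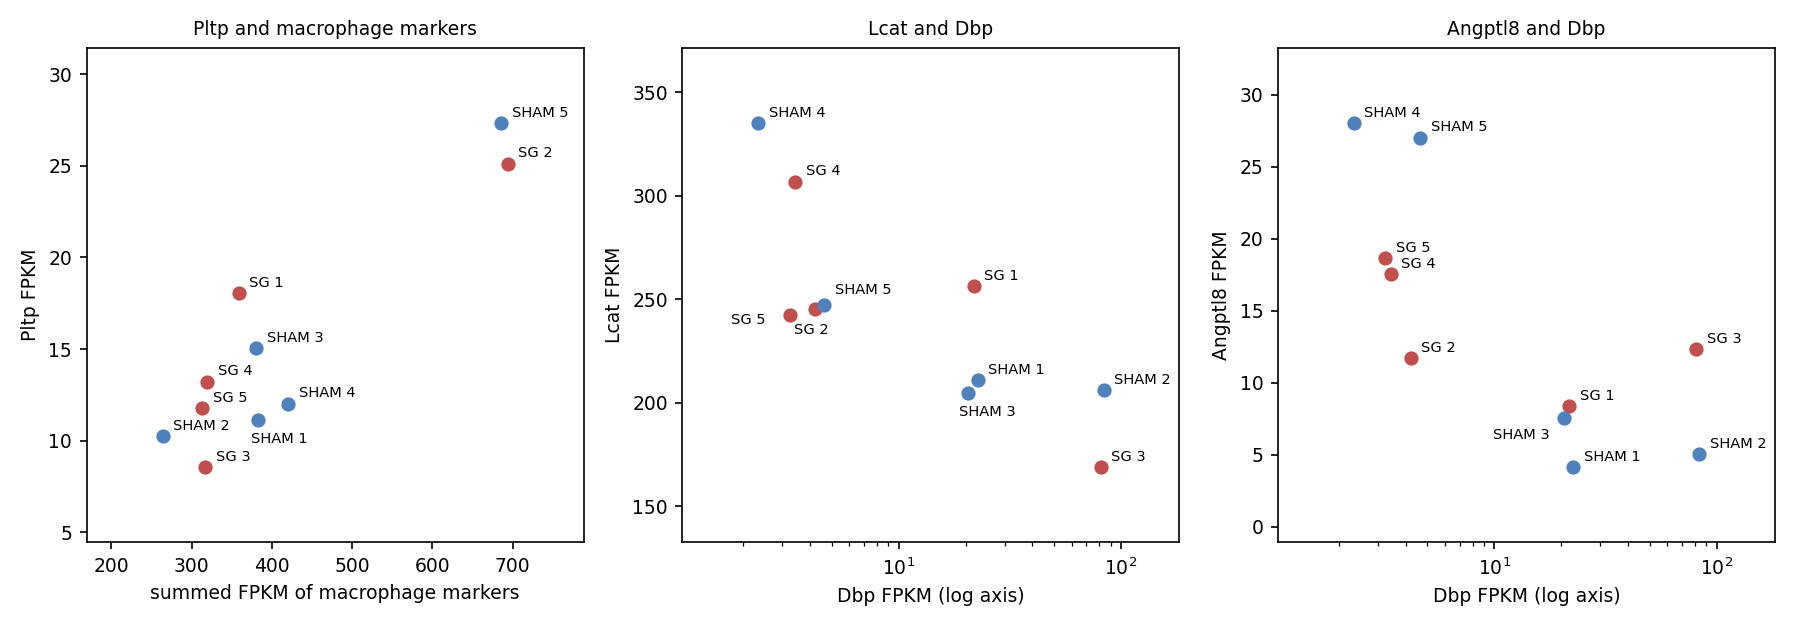
FPKM per library (SG red, SHAM blue) of Pltp against the summed FPKM of macrophage markers, and of Lcat and Angptl8 against Dbp FPKM on a log axis. SG 2 and SHAM 5 lead in both Pltp and macrophage markers, and SHAM 4 joins the highest Lcat and Angptl8 to the lowest Dbp. The lowest Angptl8 is in SHAM 1, which has a middle level of Dbp.

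Correlations between members took both signs. Over the 10 libraries, log2 depth-scaled counts (CPM) gave Pearson coefficients from -0.47 (Lipc and Scarb1) to 0.66 (Lcat and Angptl8) for the 15 pairs. None passed a permutation test adjusted over the 15 pairs. For Lcat and Angptl8 Pearson's r was 0.66 (permutation p = 0.038, adjusted p = 0.565) and Spearman's rho 0.65 (permutation p = 0.05, adjusted p = 0.374), and without the 2 libraries farthest from the median of Lcat, SG 3 and SHAM 4, r was 0.74 (exact permutation, adjusted p = 0.522). For Lipc and Scarb1 r was -0.47 (rho -0.42; permutation p = 0.174 and 0.236, adjusted p = 0.605 and 0.691), and r was -0.11 without SG 2 and SHAM 1.

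Of 9854 other named genes tested, those among the 3 most like each member over the 10 libraries were found by Pearson's r on log2 CPM. These values are the highest of many and are given as a description. For Lcat they were Fcgrt (r = 0.96), Rarb (0.92) and Cyp17a1 (0.91). For Lipc they were Ing4 (0.93), Mgp (0.93) and Dusp1 (0.93), of which Dusp1 had a mean of 68.4 FPKM in SG and 37.8 in SHAM. For Scarb1 they were Rex1bd (0.92), Tsku (0.92) and Acsf3 (0.91). For Abca1, the member with the narrowest range, the coefficients were lower, with Senp1 at 0.86 and Arsb at 0.86. For Pltp they were Ggta1 (0.93), Hcls1 (0.92) and Mylip (0.92), the last being an LXR target that marks for breakdown the LDL receptor. For Angptl8 they were Snx3 (0.94), Zfp964 (0.94) and Rprd1a (0.93).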

How the data were processed

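Total RNA of 10 samples of rat liver was depleted of ribosomal RNA and sequenced from both ends (Illumina), per the labels' protocols. HISAT2 2.0.4, StringTie 1.3.4, FastQC 0.10.1, cutadapt 1.9 and the build Rnor_6.0 appear in the submitters' processing notes. FPKM values of 51430 isoforms stand in the deposited table, per the file headers. The same table holds estimated counts, which the authors deposited as whole numbers proportional to FPKM times length.

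Isoforms were summed per gene name, leaving out 3 intronic or antisense entries named after members. Of the summed genes 15120 names were in the RefSeq table. Rounded counts of the 11139 genes with a mean of at least 1 FPKM were tested with edgeR 4.0.16 in R 4.3.3 (quasi-likelihood, trimmed mean of M values scaling), adjusted by Benjamini-Hochberg over all of them at 0.05. Standard errors came from the F statistic. Alternatives used limma 3.58.1 on log2(FPKM + 0.5), with pseudocounts of 0.1 and 1 beside it, and DESeq2 1.42.0. The edgeR fit was tested on simulated data, with changes larger than any estimated for the members. That test does not show whether changes of the members' size would be found. The median half-width of a 95% interval was 0.37 on the log2 scale. Correlations used 100000 resamples with 10 libraries and exact enumeration with fewer.

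The members and gene lists were chosen with earlier results of these data known. Genes named from lists were the 3 with the smallest p in each, the most abundant gene of a marker list, and the 3 most like each member; others were picked with their values known. Some genes that this rule names are not reported here. Marker lists covered hepatocytes, macrophages, sinusoidal endothelium, stellate cells, cholangiocytes, red blood cells, adipocytes and pancreatic acinar cells.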

Additional observations from a re-analysis of the deposited data

Results flagged for a closer look

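In 18 groups of 5 values (the FPKM of 6 genes and the leading isoform's share of 3 genes, in SG and SHAM), 2 held a value far from the rest. Chance sets about 1 in 20 groups apart by this measure, Dixon's ratio of the gap to the range, above 0.71. Pltp stood at 27.3 FPKM in SHAM 5, with the gap to the next SHAM library at 0.717 of the group's range. The leading Scarb1 isoform held 99.4% of the gene's FPKM in SHAM 2, where the second isoform was listed at 0, with a ratio of 0.723. SHAM 2 stood apart within SHAM only, since SG 2 (98.9%) and SG 4 (99.1%) had nearly the same share and also listed that isoform at 0.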

How the results depend on the processing

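Lipc, Scarb1 and Abca1 kept their sign under all 20 alternatives, and no member passed under any (adjusted p from 0.711 to 0.9999). In limma on log2(FPKM + 0.1), (FPKM + 0.5) and (FPKM + 1), Angptl8 turned to 0.34, 0.31 and 0.28, while Lcat and Pltp stood at 0.02 in each, where the median of all genes was 0.09, 0.08 and 0.07; Angptl8 was 0.33 without SG 2 and SHAM 5. With 1 library left out, values ranged from -0.20 to 0.086 for Lcat, -0.34 to 0.25 for Pltp, -0.38 to 0.26 for Angptl8 and -2.70 to 3.59 points for the Scarb1 isoform share. The cause was not tested. Over all genes DESeq2 called 18, edgeR 1 without SG 2 and SHAM 5, and 0 to 1 with 1 library left out (1 without SG 5 and 1 without SHAM 1). No gene on the lists of apolipoproteins, lipases, receptors, sterol export, LXR and lipogenic genes was called under any alternative. Cell type markers and Dbp were not part of that count. Deviations from the group means correlated from -0.22 to 0.14 between equal replicate numbers, and only SG 5 was closest to its own number. Whether the numbers pair the libraries cannot be told from these values. With the replicate number as a block 0 genes passed, as without it, and 456 had an unadjusted p under 0.05 (505 without). In that fit Angptl8 stood at 0.29 ± 0.34 (SE) and Lipc at 0.49 ± 0.13, where the SE without the block was 0.57 and 0.21. For Lipc the edgeR p with the block was 0.0071 before and 0.995 after adjustment. No correlation between members passed. Without the 2 farthest libraries r turned to 0.42 for Abca1 and Angptl8, -0.40 for Lipc and Pltp, -0.22 for Scarb1 and Angptl8 and 0.54 for Scarb1 and Pltp. With 1 library left out r ranged from -0.37 to 0.10 for Abca1 and Angptl8, -0.21 to 0.15 for Abca1 and Pltp, -0.58 to 0.21 for Lcat and Abca1, -0.20 to 0.27 for Lipc and Pltp, -0.15 to 0.27 for Scarb1 and Angptl8 and -0.28 to 0.37 for Scarb1 and Pltp. Each member had at least 347 estimated counts in every library.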

Other observations

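There were 3 entries named after members that were left out of the sums because they lie in introns or on the other strand. An unspliced transcript inside an Abca1 intron, listed on the opposite strand (chr5:69920588-69926935, 6348 nt), stood at 2.22 to 3.38 FPKM in SG and 2.59 to 4.29 in SHAM. On the strand opposite to Lipc, an antisense transcript of 2 exons (chr8:77308022-77437146) stood at 0.74 to 1.60 FPKM in SG and 0.42 to 1.46 in SHAM, and an intronic one (chr8:77338179-77381295) at 1.76 to 3.55 and 0.95 to 2.84 FPKM. Red blood cell markers had a summed level of 135 to 489 FPKM in SG and 245 to 1202 in SHAM, with the most abundant, Hba-a2, at 978 FPKM in SHAM 4. The median log2 fold change was -1.05 for red blood cell, 0.38 for stellate cell, 0.04 for sinusoidal endothelial and -0.06 for hepatocyte markers, with 0 passing in each list. The stellate cell median was 0.03 without SG 2 and 0.21 without SHAM 3. The red blood cell median was -0.61 without SHAM 4 and -0.65 in limma. The endothelial median was 0.23 without SHAM 5 and -0.09 without SG 2, and the hepatocyte median was 0.03 in limma. Sinusoidal endothelial markers summed to 120 to 176 FPKM in SG and 93.7 to 155 in SHAM. The most abundant genes of the endothelial, stellate cell and cholangiocyte lists, Fcgr2b, Col3a1 and Epcam, had log2 fold changes of -0.01 ± 0.23, -0.10 ± 0.39 and -0.003 ± 0.33 (SE). Col3a1 does not stand for its list: of 9 stellate cell markers tested 8 were positive and 1, Col3a1, negative. Of 9 endothelial markers tested 6 were positive and 3 negative. Epcam was the only 1 of the 6 cholangiocyte markers that entered the test. Cholangiocyte markers summed to 2.99 to 8.20 and 2.11 to 7.53 FPKM, adipocyte markers, mostly Cidec, to 25.2 to 35.3 and 24.7 to 33.8, and pancreatic acinar markers, led on average by Cela1, to 1.85 to 2.30 and 1.396 to 5.64.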
